A study of Mus musculus with 6 samples.

Results

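Otx2-positive neurogenic cells were examined in the embryonic mouse retina. They were chosen by the authors' cell type name and by their Otx2 count, as cells that carry the deposited cell type name Neurogenic Cells and hold at least 2 unique molecular identifiers (UMIs, 1 per captured transcript) of Otx2. The rule took 2471 of 12857 neurogenic cells, out of 67050 cells in all. Retinas at embryonic day 14 were profiled with the 10x Genomics 3' v2 droplet assay in 6 libraries, 2 for each of 3 genotypes. The genotypes were Bax het with Atoh7 null, Bax null, and Bax null with Atoh7 null. Every group therefore carried a mutant allele of Bax, 2 of the 3 lacked Atoh7, and none had both genes intact. The labels do not say whether the replicates of a group were separate animals or pools. The p-values between genotypes below measure the spread between libraries. Those between Otx2-positive and other neurogenic cells measure how much the difference within a library varies from library to library. Both kinds of spread may be technical. The 6 libraries held 389 and 396 (Bax het Atoh7 null), 427 and 429 (Bax null), and 429 and 401 (Bax null Atoh7 null) Otx2-positive neurogenic cells, and values below are given in this order, called library order. The Bax null Atoh7 null libraries are also called double mutant.

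Neurogenic progenitors are retinal progenitors close to their last divisions, marked by proneural bHLH factors and Notch ligands. Otx2 encodes a paired-class homeodomain factor that is needed for photoreceptor and bipolar fates, and in the embryo it switches on in part of these progenitors. Its descendants include cones, and Prdm1, Crx and Neurod4 are factors of that lineage, whereas Atoh7 marks progenitors competent to form ganglion cells. Bax promotes apoptosis of surplus neurons.

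Library totals ranged from 22463515 to 66594431 UMIs, and both Bax null libraries were the deepest, with a median of 5807 and 7142 UMIs per neurogenic cell against 1532 to 2393 in the other 4. Those libraries also stood apart in content: within the Otx2-positive cells, mitochondrial mt-Atp6 was at 10940 and 11322 normalised CPM (counts scaled to a common library total) in Bax null and between 0.740 and 6.03 elsewhere. Whether all 6 libraries were counted with the same gene annotation is not given in the sources used here, so a level near 0 of such a gene may not be a low transcript level. A difference between Bax null and another group thus cannot be told apart from a difference between these sets of libraries. Atoh7 had 0 UMIs in the Otx2-positive cells of all 4 libraries labelled Atoh7 null. In Bax null it stood at 25.1 CPM (72 UMIs, exact Poisson 95% interval 19.6 to 31.6) and 34.2 CPM (117 UMIs, 28.3 to 41.0). Bax over all cells, in library order, stood at 144, 108, 17.1, 14.99, 47.7 and 10.996 CPM. The fifth of these, double mutant replicate 1, lay between the Bax het libraries and the other libraries labelled Bax null.

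The Bax null Atoh7 null libraries also shared cell barcodes. They had 2596 barcodes in common (22.0% of replicate 2 and 17.6% of replicate 1), against 126 to 223 in each of the other 14 pairs of libraries. The shared barcodes had the same cell type name in both libraries in 89.4% of cases, against 34.3% to 46.0% in the other pairs. Their UMI totals in replicate 1 stood in a nearly fixed ratio to those in replicate 2, with a median of 0.380 and quartiles of 0.372 and 0.390. Among them were 54 Otx2-positive neurogenic cells of replicate 1 and 127 of replicate 2, of which 33 were in both. The 2 libraries are therefore not fully independent. Each comparison was repeated with the shared barcodes left out of replicate 1, and the values are given beside the results.

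The name of the cells was checked against markers. Among the Otx2-positive cells, Neurog2 was detected in 77.2% to 88.7% per library and Neurod1 in 82.8% to 93.8%. Neurog2 and Neurod1 encode proneural and neuronal differentiation bHLH factors. The neurogenic progenitor list (20 genes) summed to 8467 to 15800 CPM in the Otx2-positive cells, above its range of 1299 to 2821 CPM in retinal progenitor cells and 3064 to 5674 in cones. The range overlapped those of matched cells (5188 to 11532), horizontal cells (5918 to 12746) and ganglion cells (3502 to 9699), but within each library the Otx2-positive cells had the highest sum. Markers of the pigment epithelium, another Otx2-expressing tissue, were near 0: the 12 genes together summed to 4.50 to 9.39 CPM, 4 of them had no UMI, and none passed the filter on low counts. Markers of blood, vessels, mesenchyme, microglia, optic stalk and lens (13 genes) summed to 11.5 to 847 CPM in the Otx2-positive cells and to 7.05 to 819 CPM in the Otx2-zero cells they were matched with. In both classes they were highest in the Bax null libraries, and the 3 that could be tested were haemoglobin genes, none of which differed between the classes (log2 differences of -0.06 for Hba-a1, 0.03 for Hbb-bs and -0.03 for Hbb-y). Cells with a doublet score in the top 8% of their library made up 11.8% to 20.3% of the Otx2-positive cells and 16.8% to 23.7% of the matched cells.

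Of the neurogenic cells, 8472 had 0 Otx2 UMIs, 1914 had 1, 958 had 2, 882 had 3 or 4, and 631 had 5 or more. The cells just inside the rule, with 2 UMIs, made up 40.6%, 43.2%, 24.4%, 26.8%, 51.0% and 47.6% of the Otx2-positive cells of the 6 libraries, least in Bax null. Just outside lay the cells with 1 UMI, of which the libraries held 298, 376, 209, 201, 453 and 377. The largest Otx2 count of a cell was 12, 9, 18, 22, 11 and 14.

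The share of neurogenic cells that were Otx2-positive depended on depth. At full depth, the Bax het Atoh7 null libraries had shares of 20.7% (Wilson 95% interval 18.9 to 22.6) and 16.5% (15.1 to 18.1). Bax null libraries had 25.7% (23.6 to 27.8) and 25.2% (23.2 to 27.4). The double mutants had 15.7% (14.4 to 17.1) and 16.2% (14.8 to 17.7). These intervals cover counting error only. When each cell was thinned to 1500 UMIs, which left out 172, 405, 54, 62, 826 and 1191 shallower cells, the shares became 11.5% and 10.1%, 8.37% and 7.01%, and 10.2% and 14.5%. The Bax null libraries were thus the highest of the 6 at full depth and the lowest of the 6 after thinning. Thinning went by the UMI total, which in Bax null includes genes near 0 elsewhere, such as mt-Atp6. It also left out unequal parts of the libraries, from 54 of 1663 cells (Bax null replicate 1) to 1191 of 2482 (double mutant replicate 2). The thinned shares thus do not put the libraries on equal terms, and the part of these limits in the order was not tested. The group means after thinning were 10.8% ± 0.993 (Bax het Atoh7 null), 7.69% ± 0.957 (Bax null) and 12.3% ± 3.06 (double mutant; SD, n = 2). Without the shared barcodes the last value was 12.4%. With 2 libraries against 2 the smallest exact permutation p is 0.33, so the shares were not tested.

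Ganglion cells, which are expected to hold little Otx2, give the background of the count. At least 2 Otx2 UMIs were found in 0.955% to 2.46% of ganglion cells at full depth (median depth 1834 to 6683 UMIs per library) and in 0.185% to 1.45% after thinning. Retinal progenitor cells had 0.137% to 0.648% at full depth. In cones, the share was 56.6% to 85.6% at full depth and 46.5% to 57.0% after thinning. The neurogenic share therefore lay above both background types and below the cones in every library.

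**Figure D1:**
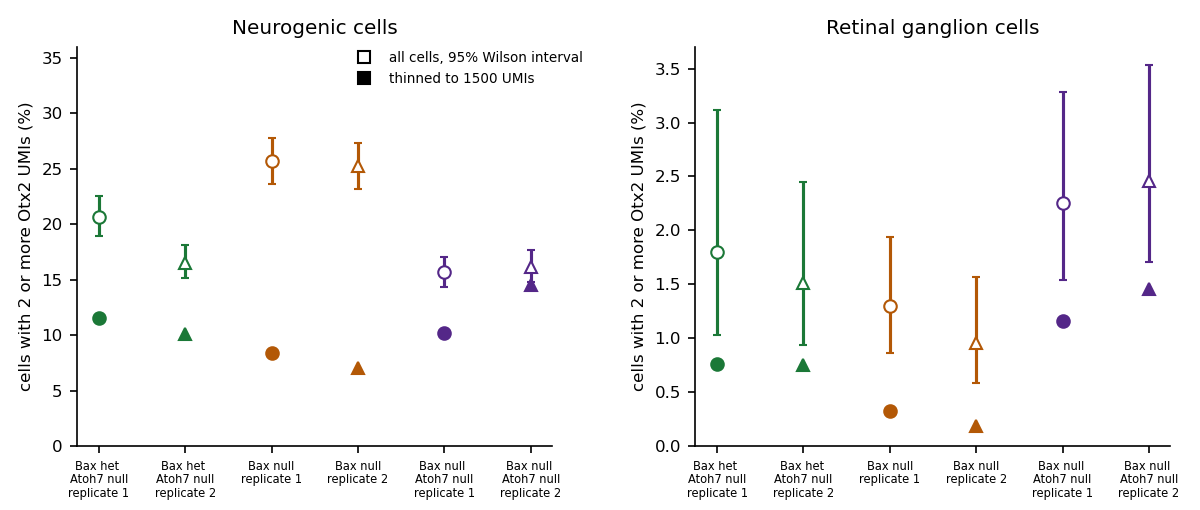
Share of cells with at least 2 Otx2 UMIs in each of the 6 libraries, in percent, by cell type, at full depth and after thinning every cell to 1500 UMIs. Neurogenic cells lie between 15.7% and 25.7% at full depth and between 7.01% and 14.5% after thinning, and the Bax null libraries move from highest to lowest.

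Summed over all neurogenic cells, positive or not, Otx2 stood at 307, 280, 192, 162, 291 and 361 CPM in library order, lowest in both Bax null libraries. Cones held 1091 to 1690 CPM, ganglion cells 10.8 to 48.2 and retinal progenitor cells 10.1 to 20.7. On the normalised scale the differences were small. The contrast that differs in Atoh7 (double mutant minus Bax null, the Atoh7 contrast) had a log2 difference of 0.29 ± 0.12 (SE; edgeR quasi-likelihood test, Benjamini-Hochberg adjusted p = 0.0573), where 47.3% of all genes tested were called. The contrast that differs in Bax dose (double mutant minus Bax het Atoh7 null, the Bax contrast) had 0.07 ± 0.12 (adjusted p = 0.882, edgeR; 1.77% of genes called). The third contrast, of Bax het Atoh7 null with Bax null, changes both genes and had 0.22 ± 0.12 (adjusted p = 0.134, edgeR; 47.1% called). None passed the threshold of 0.05, and with the shared barcodes left out the values were 0.28, 0.06 and 0.22. Single libraries decided the calls. Without replicate 1 of the double mutant the first difference became 0.38 (adjusted p = 0.00963, edgeR) and the third passed as well (0.22, adjusted p = 0.041, edgeR). The third also passed without replicate 2 of the double mutant (adjusted p = 0.0422, edgeR), where the second turned to -0.05. With probable doublets left out, the 3 differences were 0.11, 0.05 and 0.06.

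To see what else Otx2-positive cells express, each was paired within its library with a neurogenic cell of the same total count and 0 Otx2 UMIs. The median total per library was then 1828 to 7120 UMIs in the Otx2-positive cells and 1828 to 7117 in the matched cells. Counts were summed per class and library, and the classes were compared within libraries. Of 8320 genes tested, 2125 (25.5%) passed an adjusted p of 0.05 (called, below): 1088 (13.1%) were higher in Otx2-positive cells and 1037 (12.5%) were lower. Most differences were small, with 92 genes (1.11%) at least 2-fold higher and 69 (0.829%) at least 2-fold lower. The median log2 difference over all genes was 0.00. For 197 genes (2.37%) all 6 Otx2-positive sums lay above all 6 matched sums, and for 158 (1.9%) all lay below. With the shared barcodes left out of 1 library, 2122 genes were called. Without both Bax null libraries there were 1660, of which 1405 were among the 2125. DESeq2 called 1047.

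Of 20 genes of the photoreceptor lineage, 6 were high enough to test. Of these, 5 rose and none fell (median log2 difference 2.002), where 13.1% of all genes tested rose and 12.5% fell. The filter let a gene pass on the sums of 1 class alone. Crx passed through the Otx2-positive class (0 to 3.88 normalised CPM in matched cells), as did Prdm1 and Thrb in part (5.12 to 11.4 and 4.73 to 10.9). Falls of these genes could hardly have been found, so their part in the count is no support. The phototransduction genes of the list, such as Gnat2, did not pass the filter on low counts.

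Prdm1, also known as Blimp1, encodes a repressor that favours photoreceptor over bipolar fate. In the Otx2-positive cells it stood at 55.2 and 46.8 normalised CPM (Bax het Atoh7 null), 112 and 112 (Bax null), and 65.7 and 64.4 (double mutant). The matched cells held 11.4, 10.9, 7.40, 5.12, 8.42 and 6.06. The log2 difference was 3.39 ± 0.18 (SE; adjusted p = 7.58e-14, edgeR). The lowest Otx2-positive value was above the highest matched one.

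Neurod4 encodes a bHLH factor of photoreceptor and bipolar precursors. It stood at 95.3 and 156, 80.2 and 96.3, and 58.3 and 84.2 normalised CPM, against 22.0 and 24.9, 10.2 and 9.06, and 19.9 and 13.1 in the matched cells. Its log2 difference was 2.62 ± 0.14 (SE; adjusted p = 8.96e-14, edgeR), and the classes did not overlap. Neurod1, a related factor that is already abundant in neurogenic cells, was at 697 to 1104 normalised CPM against 161 to 561, a log2 difference of 1.39 ± 0.11 (SE; adjusted p = 3.13e-10, edgeR).

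Crx encodes the homeodomain factor that acts with Otx2 on photoreceptor genes. Its levels were low: 8.98 and 19.6, 16.9 and 13.5, and 14.8 and 17.8 normalised CPM in Otx2-positive cells. The matched cells held 2.84 and 3.88, 0.925 and 0.788, and 1.53 and 0. Crx differed by a log2 value of 3.22 ± 0.32 (SE; adjusted p = 1.17e-08, edgeR), again with no overlap. Crx transcripts were detected in 2.31% to 5.86% of Otx2-positive cells and in 0% to 1.26% of matched cells.

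Thrb, which encodes the thyroid hormone receptor that directs cone opsin choice, rose by less. It was at 13.3 to 26.4 normalised CPM against 4.73 to 10.9, a log2 difference of 1.32 ± 0.20 (SE; adjusted p = 1.19e-05, edgeR). Rorb, a nuclear receptor gene of rods that progenitors also express, was at 762 to 2296 against 807 to 1760 normalised CPM. Its log2 difference of 0.11 ± 0.05 did not pass (adjusted p = 0.104, edgeR), and it was higher in 3 of 6 libraries.

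Otx2 and Crx proteins recognise the core TAATCC, whose reverse complement is GGATTA. Both strands of the 250 bases before each RefSeq start site (GRCm38.p6) were searched for these 6 letters and no other motif. They were found in 2054 of 32851 promoters (6.25%), which belong to 1949 of 27025 genes (7.21%). Of the 20 genes with the highest differences, 14 had a promoter in the table, and 1 of these genes, Ankrd33b, had a match. Of the photoreceptor list, 17 genes had a promoter, and 6 (35.3%) had a match: Aipl1, Crx, Gnat2, Rbp3, Samd7 and Thrb. A match is a description of the letters and not a measured binding site. The stretches of Otx2 itself (1 of its 4 promoters), of the called photoreceptor genes Crx and Thrb, and of Ankrd33b are printed because they hold the core, with the core in capitals, 5′ to 3′ on the strand of the gene. They lie at chr14:48665255-48665359 (minus strand, Otx2), chr7:15879956-15880109 (minus, Crx), chr14:17660854-17660959 (plus, Thrb) and chr15:31367894-31368009 (minus, Ankrd33b). The core begins 211 bases before the start in Otx2, 94 and 21 in Crx, 46 in Thrb and 200 in Ankrd33b.
Otx2: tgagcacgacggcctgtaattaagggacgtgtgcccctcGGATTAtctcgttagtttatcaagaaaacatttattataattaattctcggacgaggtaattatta
Crx: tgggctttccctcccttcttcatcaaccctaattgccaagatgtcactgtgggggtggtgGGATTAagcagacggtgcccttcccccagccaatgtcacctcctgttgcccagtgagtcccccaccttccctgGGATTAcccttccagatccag
Thrb: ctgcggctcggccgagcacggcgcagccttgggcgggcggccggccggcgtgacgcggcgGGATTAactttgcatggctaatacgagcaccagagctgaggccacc
Ankrd33b: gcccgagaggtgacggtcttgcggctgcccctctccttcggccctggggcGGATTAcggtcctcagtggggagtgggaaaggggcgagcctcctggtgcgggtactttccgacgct

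Genes of neurogenic progenitors mostly rose as well. Of 20 on the list, 19 were tested: 16 were higher, 1 was lower (Hes5), and the median log2 difference was 0.80. Over all genes tested, 13.1% were higher and 12.5% lower. Olig2, a bHLH factor of dividing progenitors that produce cones and horizontal cells, was at 120.2 and 138, 56.6 and 47.0, and 122 and 139 normalised CPM in the Otx2-positive cells. The matched cells held 29.8 and 21.0, 2.31 and 3.94, and 19.9 and 23.2. The log2 difference was 2.74 ± 0.15 (SE; adjusted p = 1.3e-13, edgeR). Both Bax null libraries were the lowest in each class, but even they lay above every matched value.

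The Notch ligand gene Dll4 was at 144 and 106, 119.8 and 111, and 115 and 154 normalised CPM, against 34.8 and 42.0, 18.5 and 7.88, and 29.8 and 37.3 in the matched cells. Dll4 differed by 2.29 ± 0.15 (SE; adjusted p = 5.8e-12, edgeR), with no overlap. The ligand gene Dll1 differed by only 0.29 ± 0.10 (SE; adjusted p = 0.0321, edgeR), and Dll3, whose product acts inside the cell, by 1.31 ± 0.10. Dll1 lost its call with DESeq2 (adjusted p = 0.282), without either Bax null library (0.25 and 0.17), without replicate 1 of Bax het Atoh7 null (0.29, adjusted p = 0.0716, edgeR) and without both Bax null libraries (0.07, adjusted p = 0.705, edgeR).

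The proneural gene Neurog2 rose by 1.31 ± 0.09 (SE, log2). It was at 664 to 1350 normalised CPM against 165 to 608, and the classes did not overlap. Also higher were Penk, which encodes an opioid precursor (1.78), Sstr2, a somatostatin receptor gene (1.47), Insm1, a zinc-finger gene of neuronal differentiation (1.18), Foxn4, a forkhead gene of progenitors (0.90), Hes6 (0.80) and the antiproliferative gene Btg2 (0.57).

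Hes5, a Notch effector that holds progenitors back from differentiation, moved the other way. It was at 417 and 301, 562 and 493, and 503 and 348 normalised CPM in the Otx2-positive cells. The matched cells held 1134 and 1007, 1424 and 1415, and 1202 and 1226. The log2 difference was -1.50 ± 0.05 (SE; adjusted p = 1.91e-17, edgeR). The highest Otx2-positive value was below the lowest matched one. The Notch targets Hes1 and Hey1 were lower by similar amounts, -1.39 ± 0.06 and -1.39 ± 0.11 (SE, log2).

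Genes of multipotent progenitors were lower. Of 18 on the list, all were tested: none rose and 15 fell, where 13.1% of all genes tested rose and 12.5% fell. The median log2 difference was -0.67. Ccnd1, the cyclin of G1 progression in the retina, was at 511 and 493, 687 and 727, and 518 and 543 normalised CPM, against 1255 and 1340, 1430 and 1603, and 1297 and 1781 in the matched cells. Its log2 difference was -1.31 ± 0.05 (SE; adjusted p = 2.79e-16, edgeR). Every library showed the same order for Ccnd1, with no overlap. Further differences were -1.22 for the growth factor gene Fgf15, -0.99 for the Wnt modulator Sfrp2, -0.87 for Id3, -0.69 for Id1, -0.64 for Pax6 and -0.39 for Sox2. Pax6 and Sox2 encode transcription factors that maintain retinal progenitors.

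Cell cycle genes split by phase. All 18 genes of G2 and mitosis were higher (median log2 difference 0.54), where 13.1% of all genes tested were. Among them were Ccnb1 (0.85), Aurka (0.84), Cenpf (0.79), Ube2c (0.69) and Mki67 (0.46). Top2a, a topoisomerase of dividing chromosomes, was at 1008 and 936, 1076 and 1025, and 1055 and 912 normalised CPM, against 623 and 594, 839 and 780.0, and 673 and 509. Its log2 difference was 0.58 ± 0.05 (SE; adjusted p = 1.17e-10, edgeR), and the classes did not overlap.

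Of 16 S phase genes, 12 fell and 1 rose, with a median of -0.48, where 12.5% of all genes tested fell and 13.1% rose. Ung, a uracil glycosylase gene that peaks at the start of S phase, was at 19.8 to 31.8 normalised CPM against 61.8 to 80.7, a log2 difference of -1.44 ± 0.11 (SE; adjusted p = 5.98e-11, edgeR). The replication genes Gins2 (-0.82) and Mcm5 (-0.74) were lower, and Rrm2, a ribonucleotide reductase gene, was the one that rose (0.32 ± 0.04). Of 13 genes of cell cycle exit and G1 control, 12 were tested, with 4 higher and 5 lower (median 0.04), against 13.1% and 12.5% of all genes. The 4 that rose were the inhibitor genes Cdkn1a (0.84), Cdkn2c (0.72), Cdkn2d (0.61) and Cdkn1c (0.59), and the D cyclin gene Ccnd3 was among those that fell (-0.69).

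Other lineages were represented by single genes. Of 14 horizontal and amacrine genes, 6 were tested, and 3 rose (median 0.43), where 13.1% of all genes rose. Onecut1, a cut-homeodomain factor of cone and horizontal cell precursors, was at 94.6 and 95.01, 88.2 and 103, and 73.1 and 69.3 normalised CPM, against 25.6 and 20.2, 15.7 and 16.9, and 23.0 and 20.2. The log2 difference was 2.19 ± 0.11 (SE; adjusted p = 5.27e-14, edgeR), and the classes did not overlap. The other two were Meis2 (1.13 ± 0.11) and Onecut2 (0.34 ± 0.07), both transcription factor genes. Onecut2 was lower when pairs were drawn within clusters (-0.20, adjusted p = 0.02, edgeR).

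Of 21 ganglion cell genes, 14 were tested, with 4 higher and 3 lower (median 0.11). Of all genes tested, 13.1% were higher and 12.5% lower, so these small counts in both directions give no result for the list. Those higher included Ebf3 (1.19), Klf7 (0.64) and Stmn2 (0.42). Stmn2 lost its call without both Bax null libraries (0.09, adjusted p = 0.173, edgeR) and with DESeq2 (adjusted p = 0.247), and Klf7 was at 0.35 without those libraries and still called. Those lower were Dlx2 (-1.03), Isl1 (-0.60) and Dlx1 (-0.56), homeodomain genes of ganglion and amacrine precursors. Of 10 bipolar genes, 3 were tested and 2 rose: Lhx3, a LIM homeodomain gene (2.73 ± 0.21 SE, adjusted p = 8.11e-11, edgeR), and Prdm8 (0.92 ± 0.20 SE, adjusted p = 0.00104, edgeR). Lhx3 was at 0.788 to 8.55 normalised CPM in matched cells and 9.78 to 43.6 in Otx2-positive cells. It passed the filter mainly through the Otx2-positive class. Of 12 genes of dissociation and stress, 7 were tested and 5 were lower (median -0.33), where 12.5% of all genes were. The lower ones included Fos (-0.47), Jun (-0.45) and the chaperone gene Hspa5 (-0.33). The part of these genes in the other differences was not tested.

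By the rule for named genes, the 20 highest and 10 lowest differences were singled out among genes of at least 20 normalised CPM that moved one way in all 6 libraries. Of the 20, 18 did not overlap between the classes, and of the 10, 6 did not, against 2.37% and 1.9% of all 8320 genes tested. Since these genes were picked for large differences in the same sums, the counts describe the pick and do not back it. Several were genes described above: Prdm1, Olig2, Lhx3, Neurod4, Dll4, Onecut1 and Penk on the high side, and Hes5, Ung, Hes1 and Hey1 on the low side. Ankrd33b was at 36.6 and 45.2, 58.3 and 53.1, and 49.4 and 56.4 normalised CPM, against 9.24 and 4.66, 7.40 and 6.70, and 13.8 and 7.07, a log2 difference of 2.66 ± 0.16 (SE; adjusted p = 8.6e-13, edgeR). Tfap2d, an AP-2 factor gene, was at 52.8 to 78.2 against 3.24 to 18.4, a difference of 2.65 ± 0.20 (SE; adjusted p = 3.3e-11, edgeR). Both were higher in every library, with no overlap.

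The rest of the high side comprised Hes2 (2.55), Elfn1 (2.38), the glutamate transporter gene Slc1a2 (2.25), Tmem255a (1.95), the protocadherin genes Pcdh17 (1.92) and Pcdh10 (1.67), A830018L16Rik (1.91), 5730559C18Rik (1.71), Pxk (1.63), Klhdc8a (1.58) and 3110035E14Rik (1.55). Hes2 and Tmem255a were those whose classes overlapped. On the low side were Ccdc182 (-1.57), the peptide gene Cck (-1.55), Dpf3 (-1.52), Insm2 (-1.50), the glucose transporter gene Slc2a1 (-1.48) and the neurotrophin receptor gene Ntrk2 (-1.46). Slc2a1 was at 53.1 to 196 normalised CPM against 125 to 482, and although its classes overlapped, it was lower in all 6 libraries.

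Levels across the Otx2 count were examined as a description, since cells with more Otx2 UMIs are also deeper. From 0 to 1, 2, 3 or 4, and 5 or more Otx2 UMIs, Prdm1 went from 10.3 to 32.2, 53.2, 68.6 and 90.7 CPM (means of 6 libraries). Olig2 went from 18.5 to 61.5, 84.9, 120 and 137 CPM. Neurod4 went from 21.7 to 47.7, 73.0, 101 and 117 CPM. These means increased at every step, though single libraries did not all do so (Prdm1 in replicate 2 of Bax het Atoh7 null was at 60.002, 42.1 and 50.8 CPM over the last 3 strata). The means of cells with 1 UMI, which were in neither class, lay between the Otx2-zero cells and those with 2.

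Other genes levelled off. Neurog2 went from 453 to 769, 998, 1008 and 977 CPM, and Crx from 2.58 to 6.51, 13.2, 17.3 and 16.6 CPM. Hes5 fell from 1157 to 725, 526, 397 and 350 CPM over the same steps. Ccnd1 fell from 1352 to 1061, 767, 527 and 413 CPM, while Top2a went from 573 to 765, 908, 1002 and 1136 CPM. The means of Prdm1, Olig2, Neurod4 and Top2a thus increased over all steps, and those of Hes5 and Ccnd1 decreased.

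**Figure D2:**
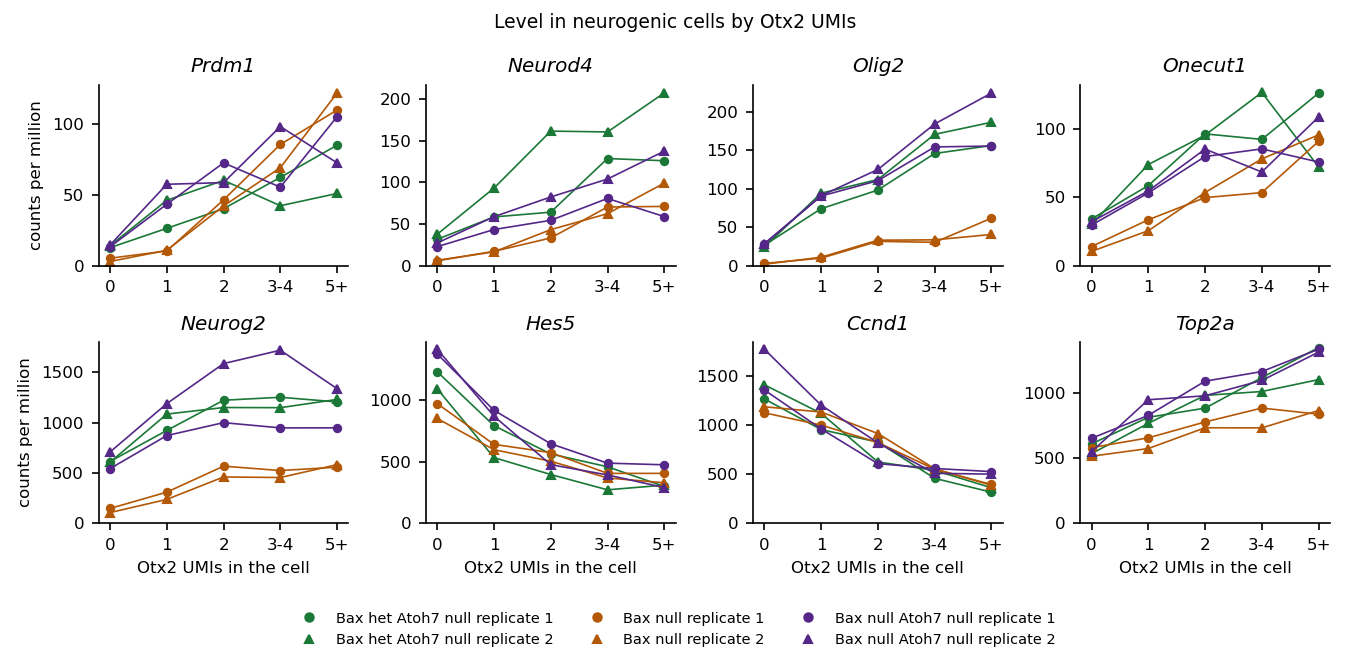
Level of genes in CPM by the number of Otx2 UMIs in neurogenic cells (0, 1, 2, 3 to 4, 5 or more), 1 line per library. The means over libraries of Prdm1, Neurod4 and Olig2 climb with the Otx2 count and those of Hes5 and Ccnd1 go down (1157 to 350 and 1352 to 413), while single lines cross or dip.

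Levels in Otx2-positive neurogenic cells were set beside those in cones. On the CPM scale, Crx averaged 15.4 ± 5.08 in Otx2-positive cells and 341 ± 57.7 in cones (SD, n = 6). Prdm1 averaged 72.5 ± 14.7 and 314 ± 74.0, Neurod4 95.9 ± 40.2 and 466 ± 106, and Thrb 20.03 ± 5.44 and 349 ± 106. The classes did not overlap for any of these 4 genes, and cones were higher in all 6 libraries. The reverse order held for Olig2 (110.1 ± 55.3 against 1.99 ± 1.75), Neurog2 (1005 against 42.5), Onecut1 (86.3 against 27.7) and Top2a (1000 against 40.4), which were higher in Otx2-positive cells than in progenitors, matched cells, cones or ganglion cells on average. Horizontal cells were not part of this comparison. These levels were set side by side without a test because the cell type names were made by clustering the same transcripts.

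**Figure D3:**
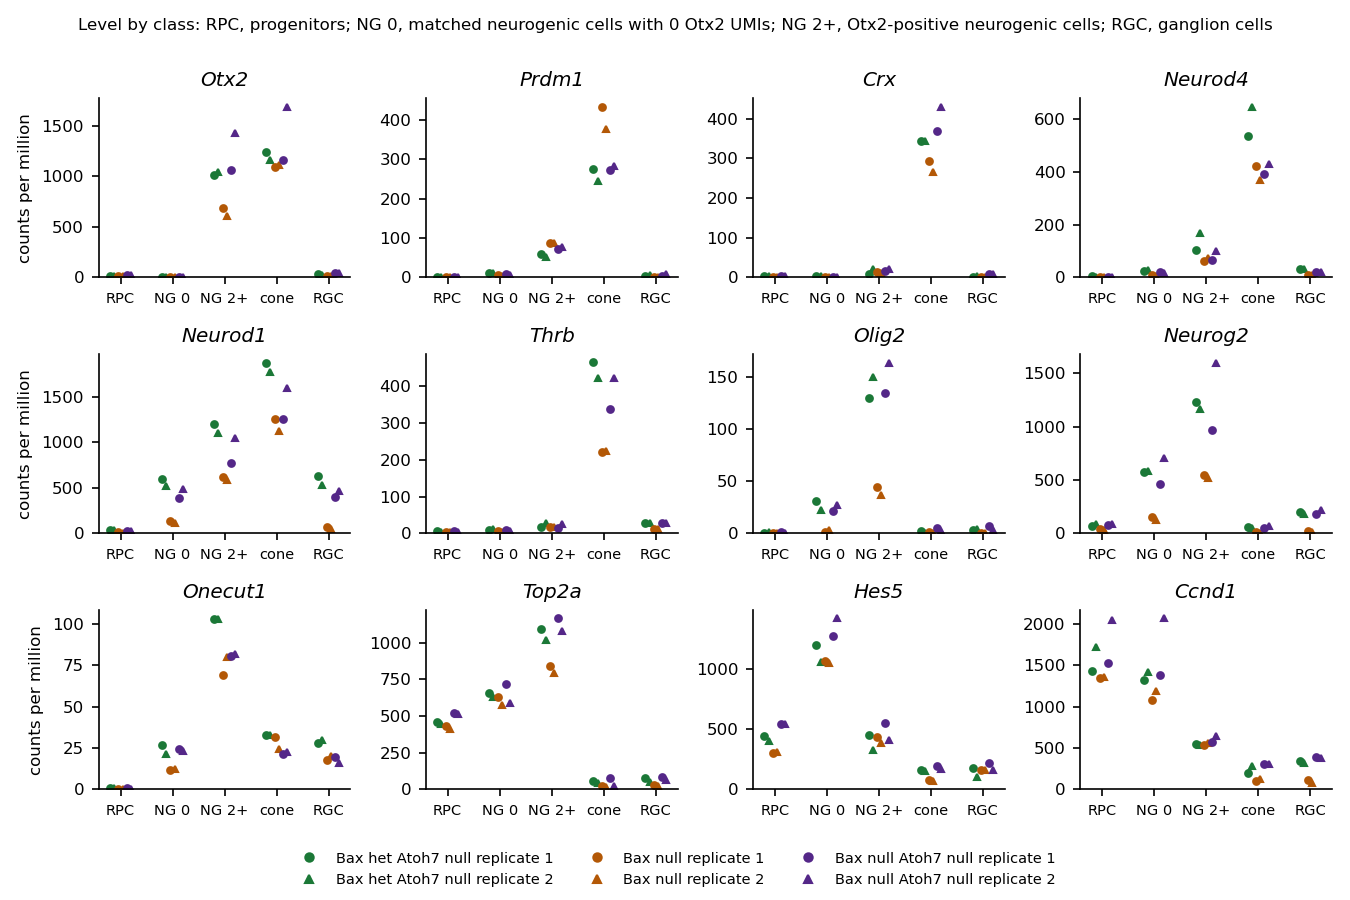
Level of 12 genes in CPM by cell class (retinal progenitor cells, matched Otx2-zero and Otx2-positive neurogenic cells, cones, ganglion cells), 1 point per library. Among these classes, Crx, Prdm1, Neurod4 and Thrb are highest in cones, and Olig2, Onecut1, Neurog2 and Top2a are highest in Otx2-positive neurogenic cells. Horizontal cells are not shown.

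The Otx2-positive cells were not 1 cluster. The deposited clustering divided neurogenic cells into 27 clusters, and 26 of them held Otx2-positive cells. The 7 clusters with most of them held 1709 (69.2%) of the Otx2-positive cells and 33.3% of all neurogenic cells. Cluster 3 held the largest number, 481 of its 879 cells. By library, these 7 clusters held 78.9%, 75.5%, 58.5%, 54.3%, 72.3% and 77.3% of the Otx2-positive cells. The lower shares were those of Bax null. Cluster 87 held 0.932% to 1.17% of the Otx2-positive cells of Bax null libraries and 15.5% to 17.7% elsewhere. Cluster 120 held 0% to 0.468% and 11.5% to 13.9%.

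Expression within the Otx2-positive cells differed between clusters, which is described without a test, as means ± SD over libraries with at least 10 such cells. In cluster 87 (4 libraries, none of them Bax null), Olig2 was at 240 ± 25.2 CPM, Top2a at 1689 ± 100, Neurod4 at 101 ± 31.5 and Prdm1 at 88.5 ± 10.2. In cluster 59 (6 libraries), Olig2 was at 19.9 ± 20.2 CPM, Top2a at 145 ± 101, Neurod4 at 324 ± 212 and Prdm1 at 133 ± 54.5. In cluster 79 (5 libraries), Prdm1 was at 145 ± 47.9 CPM, Neurod4 at 274 ± 96.0, Top2a at 52.4 ± 48.0 and Olig2 at 13.02 ± 17.9. Otx2-positive cells thus included a cluster high in Olig2 and Top2a and clusters low in both but higher in Neurod4. Prdm1 was not split in this way, since its range in cluster 87 (74.0 to 97.8 CPM) lay inside that in cluster 59 (59.9 to 209).

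Detection in single cells was also compared. Among Otx2-positive cells, Top2a was detected in 87.3% to 100% of those with Olig2 and in 53.3% to 73.4% of those without. Cells with Olig2 were deeper in the 4 libraries other than Bax null (medians of 2053 to 3595 against 1723 to 2742 UMIs) and not in Bax null (6090.0 and 7002 against 6119 and 7195), where the Top2a shares were 100% and 93.9% against 71.4% and 73.4%. Top2a was detected in 43.9% to 65.3% of cells with Neurod4 and in 65.7% to 85.8% of those without, and was lower in every library. Neurod4 was detected in 24.7% to 47.8% of cells with Prdm1 and in 12.03% to 30.1% of those without, higher in 6 of 6 libraries. Olig2 was detected in 20.4% to 35.1% of cells with Prdm1 and in 20.3% to 35.7% of those without, lower in 5 of 6 libraries. Top2a was detected in 53.8% to 80.9% of cells with Prdm1 and in 63.9% to 83.8% of those without, also lower in 5 of 6. Neither pair with Prdm1 thus had 1 order in all libraries. These shares describe detection at the depth of each library and were not tested.

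When each Otx2-positive cell was paired with an Otx2-zero cell of its own cluster as well as its library, 249 to 354 pairs per library remained. The pairs were less closely matched in depth, with the Otx2-positive median higher in every library (1695 to 7512 against 1615 to 6349 UMIs). Here 387 of 7411 genes (5.22%) were called, 140 higher (1.89%) and 247 lower (3.33%), and 349 of the 387 were among the 2125. The photoreceptor list kept 5 of 6 tested genes higher (median 1.64), with log2 differences of 4.37 for Crx, 2.07 for Prdm1, 1.98 for Neurod4, 1.29 for Thrb and 0.66 for Neurod1. The limit of the filter given above for Crx, Prdm1 and Thrb was not removed by this pairing. The other lists did not keep their counts. Of the neurogenic progenitor genes, 9 were higher and 3 lower (median 0.20), of the progenitor genes 1 was higher and 7 lower (median -0.14), and of the genes of G2 and mitosis 1 of 18 was higher (median 0.06).

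Within clusters, Hes5 remained lower (-1.27), as did Ccnd1 (-0.47) and Hey1 (-0.94), and Olig2 (0.87), Dll4 (0.92) and Onecut1 (0.71) remained higher, all with adjusted p under the threshold (edgeR). Top2a (0.06), Ung (-0.16) and Mcm5 (-0.30) were no longer called, and Dll1, Sfrp2, Id3 and Rrm2 changed sign without being called. Onecut2 was called in the opposite direction. Since the clusters were made from the same transcripts, this pairing also removes differences that run along with cluster.

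The differences between Otx2-positive and matched cells were then compared between genotypes. In the Bax contrast, 0 of 9418 genes (0.0%) had a different within-library difference by edgeR or by DESeq2, and 491 had an unadjusted p under 0.05 (edgeR). For Prdm1, the gap between the within-library differences of these groups was 0.94 ± 0.44 (SE; adjusted p = 0.937, edgeR), for Neurod4 -0.37 ± 0.34, for Olig2 0.28 ± 0.29 and for Onecut1 -0.32 ± 0.30.

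In the Atoh7 contrast, whose groups also differ in the library properties given above, 107 of 9418 genes (1.14%) differed, 46 upward (0.488%) and 61 downward (0.648%). Of the 18 genes of G2 and mitosis, 13 had a larger difference in the double mutant. Of 20 neurogenic progenitor genes, 8 had a smaller one. Neurod1 was at 788 and 757 normalised CPM in Otx2-positive cells of Bax null against 186 and 159.8 in their matched cells. In the double mutant it was at 685 and 871 against 355 and 407. The gap between the log2 differences was -1.15 ± 0.09 (SE; adjusted p = 8.42e-14, edgeR). The Otx2-positive levels of Neurod1 overlapped between these groups, and the matched levels did not.

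The comparison was repeated with both classes chosen by Otx2 counts thinned to 1500 UMIs per cell. Other genes kept their full counts. Comparison cells had 0 Otx2 UMIs after thinning but could hold Otx2 UMIs at full depth, so the classes were less distinct, most of all in deep libraries. Here 7 of 7538 genes were called in place of 107, with 0 of the 18 genes of G2 and mitosis and 0 of the 20 neurogenic progenitor genes. The gap for Neurod1 was then -0.45 (adjusted p = 0.229, edgeR), that for Neurog2 -0.17 (adjusted p = 0.847, edgeR) and that for Top2a 0.40 (adjusted p = 0.135, edgeR), near its value of 0.37 before. Cells, their number and the genes tested all changed here, and the cause of the lower count was not tested. Without double mutant replicate 2 there were 50 genes, without double mutant replicate 1 there were 65, and 69 and 59 without replicates 1 and 2 of Bax null. With the shared barcodes left out there were 101. DESeq2 called 27.

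Levels within Otx2-positive cells were also compared directly between genotypes, first in the Bax contrast. Of 8880 genes tested, 137 (1.54%) passed, 4 higher (0.045%) and 133 lower (1.5%). Bax itself was at 113 and 92.0 normalised CPM in Bax het and 45.9 and 9.95 in double mutant cells, a log2 difference of -1.76 ± 0.29 (SE; adjusted p = 0.00134, edgeR). Of 9 tested photoreceptor genes 2 fell, Rorb and Neurod4. Rorb was at 1567 and 1651 against 846 and 765 normalised CPM, a difference of -0.997 ± 0.154 (SE; adjusted p = 0.000949, edgeR). Neurod4 was at 95.1 and 156 against 58.4 and 84.6, a difference of -0.83 ± 0.21 (SE; adjusted p = 0.0495, edgeR), next to the threshold. Neither gene overlapped between the groups.

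Insm1 was the neurogenic progenitor gene that fell (495 and 549.7 against 402 and 297 normalised CPM, log2 difference -0.57 ± 0.14 SE, adjusted p = 0.0349, edgeR). Prdm1 (0.35 ± 0.17), Onecut1 (-0.40 ± 0.15), Crx (0.20 ± 0.37), Olig2 (0.01 ± 0.14) and Neurog2 (0.02 ± 0.17; log2 differences with SE) were not called. Largest among the falls were those of genes outside the lists, in which double mutant replicate 1 lay between the Bax het libraries and double mutant replicate 2. Ftl1, a ferritin subunit gene, was at 1394 and 992 normalised CPM in Bax het and at 440.0 and 19.9 in double mutant cells, a log2 difference of -2.32 ± 0.52 (SE; adjusted p = 0.0212, edgeR). Ftl1 lies near Bax on chromosome 7 (bases 45457944 to 45459884 and 45461697 to 45466898). The part of this position in its difference was not tested. Pet100, a gene of respiratory complex assembly, was at 107 and 129.7 against 42.2 and 17.9 (-1.90 ± 0.23 SE, adjusted p = 0.000118, edgeR). Rps27rt, a ribosomal protein retrogene that may share reads with its parent gene, differed by -2.65 ± 0.39 (SE), and Rab26os by -2.22 ± 0.52 (SE). The 4 genes that rose were Gm15545 (1.71), Macf1, a cytoskeletal linker gene (0.70), Sugt1 (0.63) and Mphosph10 (0.61). Gm15545 and Mphosph10 also lie on chromosome 7, from bases 44986900 and 64376527.

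The count of genes in the Bax contrast was sensitive to single libraries: 72 and 73 without replicates 1 and 2 of Bax het Atoh7 null, 283 and 217 without replicates 1 and 2 of the double mutant, and 111 without either Bax null library, which enters through the shared spread. It was 87 by DESeq2 and 126 with the shared barcodes left out.

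In the Atoh7 contrast, the Otx2-positive cells differed in 2976 of 8880 genes (33.5%), with 1464 higher (16.5%) and 1512 lower (17.0%). The same test over all neurogenic cells called 5518 of 11670 genes (47.3%), so that differences of these libraries were not limited to Otx2-positive cells. Olig2 was at 56.8 and 47.2 normalised CPM in Bax null cells and 122 and 139 in the double mutant (log2 difference 1.33 ± 0.15 SE, adjusted p = 6e-07, edgeR). The Bax het Atoh7 null libraries stood at 120.0 and 138, close to the double mutant. Lhx3 (1.81 ± 0.25) and Neurog2 (0.71 ± 0.17) were also higher in the double mutant than in Bax null, and Prdm1 was lower (-0.78 ± 0.14, log2 differences with SE, all called by edgeR). The chosen cells also differed in the plain CPM of Otx2 itself. Double mutant cells held 1065 (replicate 1) and 1430 CPM (replicate 2), whereas Bax null cells held only 686 (replicate 1) and 608 CPM (replicate 2). On this plain scale, the rule of 2 UMIs thus did not pick cells of the same Otx2 level in these groups. Normalised CPM of Otx2 were not computed for the chosen cells. Over all neurogenic cells, plain CPM of Otx2 were 192 and 162 in Bax null and 291 and 361 in the double mutant. The normalised log2 difference there was 0.29 (adjusted p = 0.0573, edgeR), so the plain gap cannot be read as one on the normalised scale.

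Prdm1 was at 113 and 112 normalised CPM in Bax null cells and 65.8 and 64.7 in the double mutant. Onecut1 was lower in the double mutant (-0.42 ± 0.14 SE, adjusted p = 0.0287, edgeR), while Crx (0.09 ± 0.33), Neurod1 (0.02 ± 0.15) and Neurod4 (-0.34 ± 0.21; log2 differences with SE) were not called. Outside the lists, the highest differences were those of the histone genes Hist1h1d (4.01) and Hist1h3e (2.74), which have near-identical copies, and of Hes2 (2.55), Sncb (2.39) and Rgs13 (2.29). Hes2, a bHLH repressor gene, was at 14.3 and 16.2 normalised CPM in Bax null, at 79.9 and 103 in double mutant and at 79.9 and 73.9 in Bax het Atoh7 null cells. The lowest 5 were mt-Atp6, mt-Nd3, Hist1h2ap, Gm10116 and Rps12-ps3. Each of these 5 was at 203 or more normalised CPM in both Bax null libraries and at 6.03 or less in the other 4, and the limit given above for mt-Atp6 holds for all of them.

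With cells chosen after thinning 1688 genes were called, DESeq2 called 1467, and without Bax null replicate 2 there were 1795. With the shared barcodes left out there were 2892. The parts that Atoh7 and the libraries played in these differences cannot be told apart.

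Within the Bax null libraries, which carry Atoh7, Atoh7 was detected in 14.99% and 23.8% of Otx2-positive cells (Wilson 95% intervals 11.9 to 18.7 and 19.99 to 28.0). In the matched cells it was detected in 15.2% and 14.9% (12.1 to 18.9 and 11.9 to 18.6). Its level was 25.1 and 34.2 CPM against 23.0 and 21.9. Otx2-positive cells therefore held Atoh7 transcripts at a level at or above that of their matched neighbours in both libraries, but the gap was beyond counting error in replicate 2 alone. In the 4 libraries labelled Atoh7 null, 0 of 389, 396, 429 and 401 Otx2-positive cells had an Atoh7 UMI, which allows shares of cells with an Atoh7 UMI of up to 0.771%, 0.758%, 0.699% and 0.748% (3 counts of the total).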

How the data were processed

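Gene by cell UMI counts for 27998 genes and a cell table with cell type names, cluster numbers and totals were used as deposited by the authors. Per the submitters' processing notes, the authors made the counts with Cell Ranger 1.2.1 and build mm10; further filters on cells are not given in the sources used here. The table's 2 libraries that belong to no sample of the series (26078 of 93128 cells) were not used. Otx2-positive cells were chosen by their own Otx2 count of at least 2 UMIs, and the members and gene lists (187 genes in 12 lists) were chosen with earlier results of these data known.

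Each Otx2-positive cell was paired 1 to 1 with an Otx2-zero neurogenic cell of its library by optimal matching on the log of the total count (scipy 1.17.1). Counts were summed per library and class. Genes were filtered with filterByExpr, scaled by TMM (the normalised CPM of the text) and tested by quasi-likelihood (edgeR 4.0.16 under R 4.3.3), with library as a block for the paired classes and with group over all 6 libraries for genotypes. Differences of within-library differences were tested as interaction terms of the 12 sums. Benjamini-Hochberg adjustment ran over all genes tested, with a threshold of 0.05, and SE is the log2 difference divided by the square root of F. Plain CPM, where a level is not called normalised, is a count over the UMI total of the class. Thinned shares are exact hypergeometric expectations for 1500 UMIs drawn per cell without replacement. For the gene comparisons, only the Otx2 count of each cell was thinned, by a random draw, to choose both classes. All other genes kept their full counts. Intervals are at 95%, and a count of 0 was given a limit of 3 counts of its total. All tests were two-sided. The fits were tested on simulated data with known changes.

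Named genes were Otx2, Atoh7, Bax, list members, the 20 highest and 10 lowest called differences between the classes with at least 20 CPM and one direction in all libraries, and up to 5 each way per genotype comparison whose groups do not overlap. No Y-linked gene, Xist or Tsix was named. Values of some list members are not reported here. Alternatives were relative log expression factors, DESeq2 1.42.0 in place of edgeR, no filter on low counts, doublets left out (the top 8% of Scrublet scores per library, scanpy 1.11.5), each library left out, no library block, unmatched cells, matching within cluster, other Otx2 minimums and thinning depths, cells under 1000 UMIs left out, a replicate block and only the 4 libraries compared. Leaving out both Bax null libraries or the shared barcodes was chosen after seeing the data. Gene positions follow GENCODE release M21, and promoter sequences are from RefSeq.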

Additional observations from a re-analysis of the deposited data

Results flagged for a closer look

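The difference between Otx2-positive and matched cells was itself different in the Atoh7 contrast (Bax null Atoh7 null, the double mutant, against Bax null) for 107 genes, by a test of the gap between the groups (edgeR, adjusted p under 0.05, n = 2 libraries per group). All values here are log2 gaps, double mutant minus Bax null. The gap was negative for the bHLH genes Neurod1 (-1.15), Neurog2 (-0.77) and Bhlhe22 (-1.52), for Sstr2 (-1.37), for the stress-response gene Gadd45g (-1.13), for the AP-2 factor gene Tfap2d (-1.91), for the POU factor gene Pou4f1 (-1.93), for the neuronal cytoskeleton genes Stmn2 (-1.01) and Ina (-1.72), and for the non-coding RNA Meg3 (-1.53). It was positive for the mitotic genes Ube2c (0.71), Ccna2 (0.86) and Top2a (0.37), and for Shroom3 (1.56), Arvcf (1.38), the integrin gene Itga6 (1.13), the tubulin gene Tuba1c (1.10) and Pak3 (0.89).

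These groups differed in depth, with a median of 6110 and 7120 UMIs per Otx2-positive cell in Bax null and 2323 and 1828 in the double mutant. Both classes were then chosen by thinned Otx2 counts, with other genes at full depth. Stmn2 kept its call (-0.75, adjusted p = 0.00439, edgeR), and the other 17 genes named here were not called. The gaps of some of these stayed as large, with -2.21 for Pou4f1, 1.58 for Shroom3, 1.42 for Arvcf, 1.63 for Itga6 and 0.40 for Top2a, while others were smaller, with -0.45 for Neurod1, -0.25 for Bhlhe22 and 0.36 for Ube2c. The cause was not tested.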

How the results depend on the processing

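Of the values of single genes between Otx2-positive and matched cells, 1309 of 1379 over all alternatives kept their direction and call, and 59 lost the call. The losses were not spread evenly over the alternatives. With pairs inside a cluster, 45 values stayed the same, 26 lost the call and 5 turned. Without the library block, 55 stayed the same and 22 lost the call. Direction turned for 6: Dll1 (-0.0449), Onecut2 (-0.20), Sfrp2 (0.00224), Id3 (0.0868) and Rrm2 (-0.0605) with pairs inside a cluster, and Rorb, which was not called, without both Bax null libraries (-0.0336). The count of 2125 genes became 1047 with DESeq2, 422 without the library block and 387 with pairs inside a cluster, and was 1776 to 1931 with single libraries left out. In the Atoh7 contrast within Otx2-positive cells, 2976 became 1467 with DESeq2, 1688 with cells chosen after thinning, and 1795 to 2913 with single libraries left out. In the Bax contrast, 137 became 87 with DESeq2, 215 without the filter on low counts, 84 with only the 4 libraries compared, 81 after thinning, and 72 to 283 with single libraries left out. The 107 gaps became 27 with DESeq2, 49 without the filter, 7 after thinning, and 50 to 108 with single libraries left out. The 0 gaps of the Bax contrast stayed at 0 in every alternative run. Otx2 over all neurogenic cells passed the threshold without the filter in the Atoh7 contrast (0.28) and with only the 4 libraries compared for Bax het Atoh7 null minus Bax null (0.23). With single libraries left out its log2 difference ranged from 0.17 to 0.41 in the Atoh7 contrast, from -0.0512 to 0.15 in the Bax contrast and from 0.11 to 0.34 in the third. The cause of these shifts was not tested.

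The share of Otx2-positive cells moved with every change of depth or minimum. In the order Bax het Atoh7 null, Bax null, double mutant, its means were 6.19%, 4.39% and 7.51% at 1000 UMIs, 15.8%, 10.8% and 17.6% at 2000 UMIs, and 18.6%, 25.5% and 15.9% without thinning. At 1500 UMIs they were 27.1%, 19.95% and 28.9% for at least 1 Otx2 UMI and 4.25%, 2.86% and 5.28% for at least 3. Leaving out doublets moved the Bax null share to 8.92%. Single libraries were 10.1% and 11.5%, 7.01% and 8.37%, and 10.2% and 14.5%. Bax null was the lowest group at each thinned setting given here, with the limits of thinning given above.

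The replicate differences of 11670 genes correlated at -0.02 between Bax het Atoh7 null and Bax null. They correlated at 0.22 between Bax het Atoh7 null and the double mutant, and at -0.11 between Bax null and the double mutant. Correlations over all genes cannot show whether libraries of the same replicate number shared a batch. A replicate block gave 2883 and 154 genes within Otx2-positive cells, 115 and 0 gaps, and Otx2 differences of 0.29, 0.07 and 0.22, and no Otx2 call changed. Depth limits what can be seen of sparse genes such as Crx, detected in 2.31% to 5.86% of Otx2-positive cells per library.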
